A study of Mus musculus with 12 samples.

Results

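Prostaglandin synthesis and reception was followed through 10 mouse genes in cultured stromal fibroblasts given TGFB1. The genes were taken by symbol from a table of 25203 genes: the phospholipase Pla2g4a, the cyclooxygenases Ptgs1 and Ptgs2, the synthases Ptges and Ptgis, the degrading enzyme Hpgd, and the receptors Ptger1, Ptger2, Ptger4 and Ptgfr. All 10 had a row, and 8 reached 1 FPKM (fragments per kilobase of transcript, scaled to the total of a library) in at least 3 of the 12 libraries and were tested. Hpgd reached 1 FPKM in 0 libraries and Ptgfr in 1, so both are given as levels.

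The cultures were primary mouse mesenchyme, described by the series as Pdgfra-lo cells carrying an H2B-GFP reporter. Each of the 4 groups held 3 libraries. Tgfbr2KO_TGFB1 and Tgfbr2KO_Vehicle were Tgfbr2 knockout cells given TGFB1 or vehicle, and TGFB1 and Vehicle were cells without that knockout label given TGFB1 or vehicle. Tgfbr2 encodes the type II receptor of TGF-beta, and the series uses the knockout to look for responses to TGFB1 outside the canonical pathway. All groups share the Pdgfra reporter description. How Tgfbr2 was deleted, the dose, the duration, the age of the animals and whether libraries of a group came from separate animals are not given in the sources used here, so p-values measure the spread between these libraries, which may be technical.

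Prostaglandins are lipid signals made from arachidonic acid. A phospholipase frees the acid from membranes, cyclooxygenases turn it into a common intermediate, and terminal synthases turn that into prostaglandin E or prostacyclin, which act on nearby cells through G-protein-coupled receptors. In the intestine, stromal fibroblasts are a known source of prostaglandin E, which acts on the epithelium of the crypts.

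FPKM of a library summed to between 498669 and 569510. Read numbers were not given, but low FPKM values placed the libraries at relative depths of 0.803 to 1.25 (Tgfbr2KO_TGFB1), 0.861 to 1.02 (Tgfbr2KO_Vehicle), 0.745 to 0.799 (TGFB1) and 0.962 to 1.05 (Vehicle), with Vehicle replicate 1 as 1. Whole-gene Tgfbr2 did not pass the test between genotypes, with 27.0 to 41.9 FPKM in Tgfbr2KO_Vehicle and 38.2 to 78.8 FPKM in Vehicle (limma, adjusted p = 0.260). Since the deleted part is not given, this value does not check the knockout. All 8 fibroblast markers (Pdgfra, Pdgfrb, Col1a1, Col1a2, Col3a1, Dcn, Lum and Vim) reached 1 FPKM in all libraries, except Lum, which did so in 11. Their sum was 3740 to 7709 FPKM in Tgfbr2KO_TGFB1, 2899 to 4206 in Tgfbr2KO_Vehicle, 8352 to 9235 in TGFB1 and 5578 to 10080 in Vehicle. The genotypes thus did not overlap in this sum, either with vehicle or with TGFB1. Pdgfra, the gene that marks these cells, had 67.3 to 195 FPKM, 48.3 to 99.8, 12.1 to 19.7 and 125 to 165 in the same order of groups, and fell with TGFB1 against Vehicle (limma, log2 -3.16, adjusted p = 0.000197). The part of these marker differences in the results was not tested. The 12 macrophage markers were also read, and their sum was at most 303 FPKM (median 213) in Tgfbr2KO_TGFB1, 149 to 403 in Tgfbr2KO_Vehicle, 15.7 to 409 in TGFB1 and 39.5 to 749 in Vehicle. The sum of 7 smooth muscle and pericyte markers was 2933 to 4555 FPKM, 3496 to 3865, 5163 to 5917 and 3609 to 4456 in the same order of groups. TGFB1 libraries thus lay above all others in this sum, and its part in the results was not tested. The 7 epithelial markers summed to 64.8 FPKM in Tgfbr2KO_Vehicle replicate 1, 27.7 in Tgfbr2KO_TGFB1 replicate 1 and at most 10.0 elsewhere, and the 8 mast cell markers to at most 1.03. The 5 mesothelial markers summed to 14.6 FPKM in Tgfbr2KO_Vehicle replicate 1, 3.84 in Tgfbr2KO_TGFB1 replicate 1 and at most 2.43 elsewhere. Whether the keratins of these libraries came from epithelial or mesothelial cells was not tested. In such bulk samples, fewer cells of a type and less RNA per cell cannot be told apart.

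In cells without the knockout, TGFB1 was accompanied by lower transcript levels of 5 of the 8 tested genes. The phospholipase Pla2g4a, the cyclooxygenase Ptgs1, the prostaglandin E synthase Ptges and the receptors Ptger2 and Ptger4 fell, by 1.34-fold to 3.32-fold as ratios of mean FPKM. Ptgs2, the inducible cyclooxygenase, did not move with them and was 1.57-fold higher by its means, without passing the test. Ptges2 and Ptges3, prostaglandin E synthases outside the 8 genes, were not called. They averaged 11.1 and 84.1 FPKM in TGFB1, against 10.6 and 83.8 FPKM in Vehicle. Of the 8 tested genes, 0 rose and 5 fell with TGFB1 against Vehicle, where 17.3% of all 12641 tested genes rose and 14.6% fell. With the replicate number as a block in the fit, 1 rose (Ptgs2) and 6 fell, where 2873 and 2367 of the 12641 genes did. The median log2 change was -0.89 for the 8 genes and 0.02 for all tested genes. The genes were chosen with earlier results of these data known, so these contrasts with all genes describe the chosen genes only. Changes are limma estimates of log2(FPKM + 1), on which weakly expressed genes show smaller changes than their ratios, and a gene was called at a Benjamini-Hochberg adjusted p under 0.05 over all tested genes. The plot of FPKM by library shows all members.

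**Figure D1:**
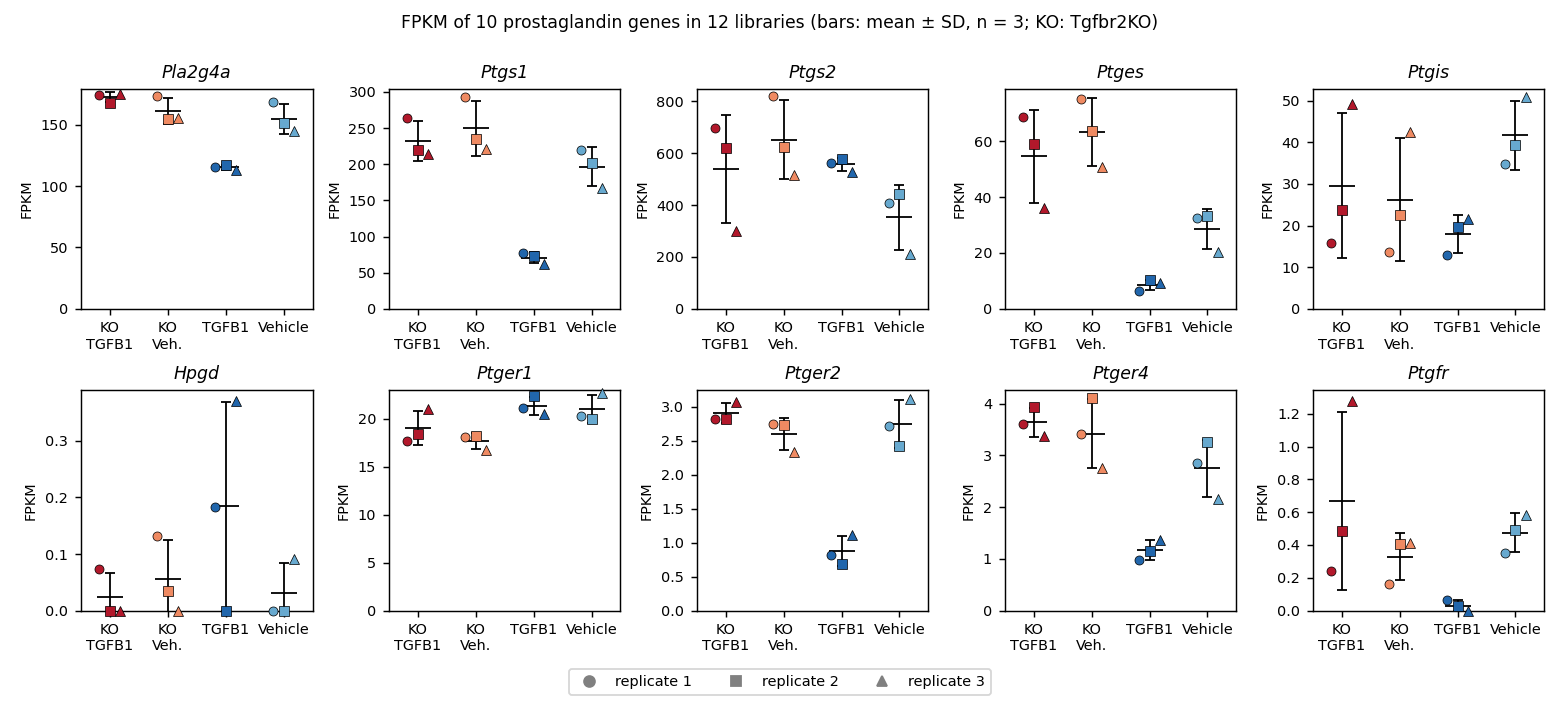
FPKM of the 10 prostaglandin genes in each library (points, vertical axis linear and starting at 0, a symbol shape for each replicate number) for the groups Tgfbr2KO_TGFB1, Tgfbr2KO_Vehicle, TGFB1 and Vehicle, with the mean ± SD (n = 3) of each group as bars. TGFB1 libraries lie below the other 9 for Ptgs1, Ptges, Pla2g4a, Ptger2 and Ptger4, but within the range of the others for Ptgs2.

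Pla2g4a encodes the cytosolic phospholipase A2 that releases arachidonic acid from membranes. Its FPKM was 116, 117 and 113 in TGFB1 replicates 1, 2 and 3, against 168, 151 and 145 in Vehicle. The groups did not overlap, and the spread among the TGFB1 libraries was small (115 ± 1.95 against 155 ± 12.2, SD, n = 3 each). Pla2g4a fell by 0.42 on the log2 scale (SE 0.065, limma adjusted p = 0.000963). In the knockout cultures it had 174, 168 and 175 FPKM with TGFB1, against 173, 154 and 155 with vehicle. These ranges overlap, and the log2 change of 0.10 did not pass the test.

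Ptgs1 encodes the cyclooxygenase that many tissues express without stimulation. It had 76.7, 73.4 and 62.0 FPKM in TGFB1 libraries, against 220, 202 and 167 FPKM in Vehicle libraries. The highest TGFB1 library was thus well below the lowest Vehicle library, and the ratio of same-numbered libraries was 0.349, 0.364 and 0.371. Ptgs1 fell by 1.46 (log2, SE 0.14, limma adjusted p = 4.92e-05), or 2.78-fold by the means of 70.7 ± 7.74 FPKM in TGFB1 and 196 ± 27.0 FPKM in Vehicle (SD, n = 3 each). The TGFB1 library with the lowest macrophage marker sum (15.7 FPKM, replicate 2) lay between the other 2 TGFB1 libraries in Ptgs1, and the same held for Vehicle replicate 2 (39.5 FPKM) among the Vehicle libraries. The part of macrophages in the level of Ptgs1 or of the other members was not tested. In knockout cultures Ptgs1 had 265, 220 and 214 FPKM with TGFB1, against 293, 234 and 222 FPKM with vehicle. Both knockout groups overlapped in Ptgs1, and their log2 difference was -0.10.

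Ptgs2 encodes the cyclooxygenase that growth factors and cytokines induce. Its level was 695, 621 and 301 FPKM in Tgfbr2KO_TGFB1, 818, 624 and 515 in Tgfbr2KO_Vehicle, 564, 577 and 528 in TGFB1, and 409, 441 and 210 in Vehicle. It was the most abundant of the 10 genes in all 12 libraries, with group means that ranked 144, 126, 155 and 210 among the 25203 genes in that order of groups. TGFB1 libraries all lay above Vehicle libraries in Ptgs2, at 556 ± 25.3 and 353 ± 125 FPKM (SD, n = 3 each). The log2 change was 0.72 with an SE of 0.34 and did not pass the test (limma adjusted p = 0.135). With the replicate number as a block it did (adjusted p = 0.0203), and the ratios of same-numbered libraries were 1.38, 1.31 and 2.51, all above 1. In knockout cultures the ranges overlapped and the log2 difference was -0.34, with a 95% interval reaching 0.758 to either side.

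The cyclooxygenases stood in different proportion with TGFB1. The ratio of Ptgs2 to Ptgs1 within a library was 2.63, 2.83 and 1.41 in Tgfbr2KO_TGFB1, 2.79, 2.66 and 2.32 in Tgfbr2KO_Vehicle, 7.34, 7.86 and 8.52 in TGFB1, and 1.86, 2.18 and 1.26 in Vehicle. All 3 TGFB1 libraries were above the other 9, and the ratio was 4.58-fold higher in TGFB1 than in Vehicle by geometric means. A two-sided exact permutation test gave p = 0.1, the smallest that 3 libraries against 3 allow, and 0.171 adjusted over 12 ratio comparisons. Between the knockout groups the ratio overlapped (exact permutation p = 0.7, adjusted 0.764).

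**Figure D2:**
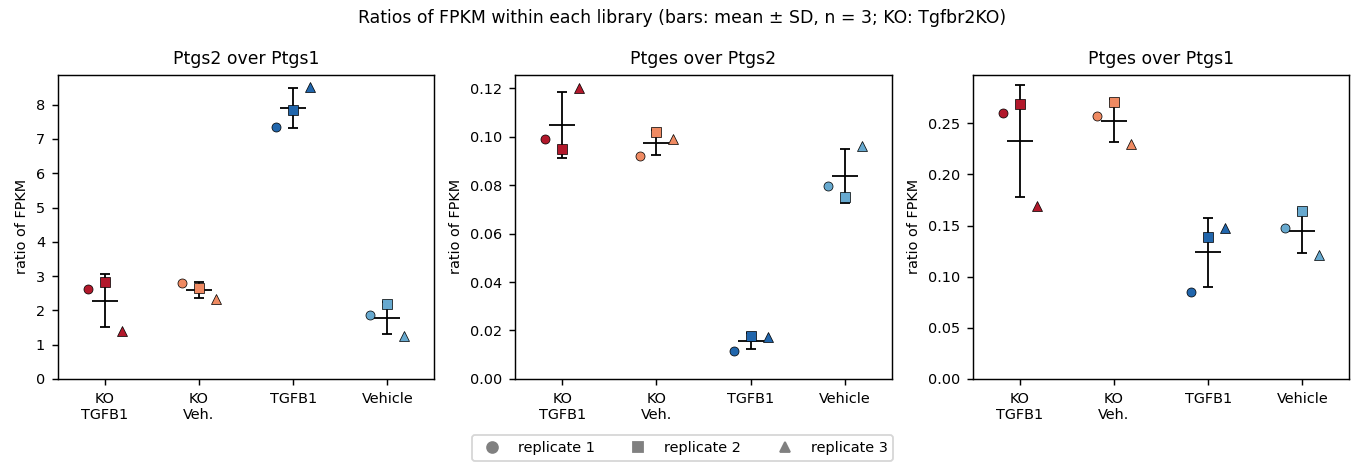
Ratios of FPKM within a library for pairs of prostaglandin synthesis genes (points are libraries, bars are the mean ± SD of a group, n = 3) in Tgfbr2KO_TGFB1, Tgfbr2KO_Vehicle, TGFB1 and Vehicle. The ratio of Ptgs2 to Ptgs1 is 7.34 to 8.52 in the TGFB1 libraries and at most 2.83 in the others.

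The proximal promoters of the cyclooxygenases and of Ptges are shown because Ptgs1 and Ptges fell with TGFB1 while Ptgs2 did not. Each window runs from 250 bases before to 50 bases after the start of the RefSeq gene on GRCm38.p6, read 5′ to 3′ on the gene's strand: chr2:36230176-36230475 (plus strand) for Ptgs1, chr1:150099781-150100080 (plus strand) for Ptgs2 and chr2:30903248-30903547 (minus strand) for Ptges. Capitals mark matches, on either strand, to any of the 7 motifs spelled out after the sequences.
Ptgs1: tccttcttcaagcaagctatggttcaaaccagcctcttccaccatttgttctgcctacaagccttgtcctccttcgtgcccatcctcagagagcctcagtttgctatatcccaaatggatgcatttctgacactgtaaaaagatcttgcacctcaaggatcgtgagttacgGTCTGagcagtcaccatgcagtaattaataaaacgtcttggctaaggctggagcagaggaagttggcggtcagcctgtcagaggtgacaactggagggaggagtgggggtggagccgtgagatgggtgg
Ptgs2: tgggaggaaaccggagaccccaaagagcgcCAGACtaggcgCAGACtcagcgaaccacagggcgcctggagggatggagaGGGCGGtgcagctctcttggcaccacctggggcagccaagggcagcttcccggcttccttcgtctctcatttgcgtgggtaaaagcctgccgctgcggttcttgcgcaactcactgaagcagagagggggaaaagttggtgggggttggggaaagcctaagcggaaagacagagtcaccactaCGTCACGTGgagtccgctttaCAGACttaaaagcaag
Ptges: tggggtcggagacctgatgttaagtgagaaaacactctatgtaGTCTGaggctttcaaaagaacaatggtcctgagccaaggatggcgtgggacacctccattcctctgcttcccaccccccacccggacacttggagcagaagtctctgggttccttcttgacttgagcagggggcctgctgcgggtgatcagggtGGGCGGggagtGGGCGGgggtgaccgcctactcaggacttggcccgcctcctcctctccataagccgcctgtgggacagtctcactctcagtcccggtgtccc
CAGAC, the core that SMAD proteins bind, occurred 3 times in the Ptgs2 window and once in each of the others, and 49.6% of 32851 RefSeq promoter windows hold it. CGTCA, a half-site of the cAMP response element, was found in the Ptgs2 window, where it overlaps the E-box CACGTG, and in 20.8% and 7.15% of all windows. GGGCGG, the GC box, was matched once in Ptgs2 and 2 times in Ptges and is held by 35.7% of windows. The TATA box TATAAA (held by 13.6% of windows), the AP-1 motif TGANTCA (7.81%) and the CCAAT box CCAAT (37.4%) were not matched in these 3 windows. A match is a description of the letters and was not tested as a site.

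Ptges encodes the inducible microsomal synthase that works with Ptgs2 to make prostaglandin E. It had 6.56, 10.2 and 9.14 FPKM in TGFB1 libraries, against 32.6, 33.1 and 20.2 FPKM in Vehicle libraries. The groups did not overlap, and Ptges fell by 1.61 (log2, SE 0.27, limma adjusted p = 0.00141), or 3.32-fold by the means of 8.62 ± 1.85 and 28.6 ± 7.27 FPKM (SD, n = 3 each). In knockout cultures it had 68.7, 59.0 and 36.2 FPKM with TGFB1, against 75.3, 63.6 and 50.9 FPKM with vehicle, and the log2 difference of -0.24 did not pass the test. Ptges relative to Ptgs2 was 0.0116 to 0.0176 in TGFB1 libraries and 0.0751 to 0.0963 in Vehicle libraries, with no overlap (exact permutation p = 0.1, the smallest possible). Relative to Ptgs1, which fell alongside it, Ptges overlapped between these groups, at 0.124 ± 0.0335 in TGFB1 and 0.144 ± 0.0215 in Vehicle (SD, n = 3 each, exact permutation p = 0.5).

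Ptgis encodes prostacyclin synthase. It had 12.9, 19.8 and 21.6 FPKM in TGFB1 libraries, against 34.7, 39.3 and 50.9 FPKM in Vehicle libraries. The groups did not overlap and the means differed by 2.30-fold, but the log2 change of -1.17 (SE 0.44) did not pass the test over all libraries (limma adjusted p = 0.0665). It did with the replicate number as a block (adjusted p = 0.00232) and in a fit of these 2 groups alone (0.0101), and over all alternatives its adjusted p ran from 0.00232 to 0.199. The spread in the knockout cultures was wide, with 15.7, 23.8 and 49.2 FPKM with TGFB1, against 13.7, 22.4 and 42.5 FPKM with vehicle. Replicate 1 was the lowest and replicate 3 the highest in all 4 groups.

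Hpgd encodes the dehydrogenase that inactivates prostaglandin E. It was near the bottom of the table, at 0 FPKM in 6 of the 12 libraries and at most 0.370 FPKM in the others (TGFB1 replicate 3). Transcripts of the degrading enzyme were thus hardly detected in any group. With no filter on low values Hpgd entered the fit and was not called in any of the 5 comparisons, with a log2 difference of 0.19 for TGFB1 against Vehicle (limma adjusted p = 0.235).

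Among the receptors for prostaglandin E, Ptger2 and Ptger4, which raise cAMP, fell with TGFB1, while Ptger1, which acts through calcium, was not called. Ptger2 had 0.822, 0.684 and 1.12 FPKM in TGFB1 libraries, against 2.71, 2.42 and 3.12 FPKM in Vehicle libraries. It fell by 1.00 (log2, SE 0.11, limma adjusted p = 0.000112), or 3.14-fold by the means. With knockout, Ptger2 stood at 2.82, 2.82 and 3.07 FPKM with TGFB1, against 2.75, 2.73 and 2.33 FPKM with vehicle. All 9 libraries outside the TGFB1 group lay above the 3 inside it.

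Ptger4 had 0.982, 1.14 and 1.37 FPKM in TGFB1 libraries, against 2.84, 3.25 and 2.16 FPKM in Vehicle libraries. It fell by 0.79 (log2, SE 0.14, limma adjusted p = 0.00204), or 2.36-fold by the means, and the groups did not overlap. The knockout cultures had 3.61, 3.94 and 3.37 FPKM with TGFB1, against 3.40, 4.10 and 2.76 FPKM with vehicle. In the GENCODE M21 annotation, 15.3% of the exon bases of Ptger4 lie opposite a pseudogene, Gm15937.

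Ptger1 had 17.6, 18.4 and 21.1 FPKM in Tgfbr2KO_TGFB1, 18.1, 18.2 and 16.7 in Tgfbr2KO_Vehicle, 21.2, 22.3 and 20.4 in TGFB1, and 20.3, 20.0 and 22.7 in Vehicle. TGFB1 and Vehicle overlapped, with a log2 difference of 0.02 (SE 0.076, limma adjusted p = 0.855). Whether the quantification used strand is not given in the sources used here, and without strand, reads of transcripts from opposite strands cannot be told apart, so the FPKM of Ptger1 are uncertain.

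Ptgfr encodes the receptor of prostaglandin F. It had 0.243, 0.487 and 1.28 FPKM in Tgfbr2KO_TGFB1, 0.162, 0.406 and 0.414 in Tgfbr2KO_Vehicle, 0.0642, 0.0275 and 0 in TGFB1, and 0.348, 0.491 and 0.586 in Vehicle. All 3 TGFB1 libraries lay below the other 9, at levels under the filter. With no filter, Ptgfr was higher in Tgfbr2KO_TGFB1 than in TGFB1 (limma log2 0.65, SE 0.18, adjusted p = 0.0319), and TGFB1 against Vehicle was not called (-0.51, adjusted p = 0.0845).

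In knockout cultures, none of these differences between TGFB1 and vehicle was called. Tgfbr2KO_TGFB1 against Tgfbr2KO_Vehicle gave 0 calls among the 8 tested genes and 0% of all tested genes in either direction. At an unadjusted p under 0.05, limma counted 0 of the 8 genes and 748 of the 12641. The 8 log2 changes ran between -0.34 (Ptgs2) and 0.16 (Ptgis), with a median of 0.09, and the smallest adjusted p among them was 0.738. A missed threshold does not show that the groups are alike, and the 95% intervals of Ptgs2 and Ptgis were wide.

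The difference between the responses of the genotypes was itself tested as an interaction, the TGFB1 change in knockout cultures minus that in the others. It was positive and passed the test for 5 of the 8 genes and negative for 0, where 8.38% of all tested genes were called positive and 9.26% negative. The interaction was 1.36 for Ptgs1 (log2, SE 0.20, limma adjusted p = 0.00151), 1.12 for Ptger2 (SE 0.15, 0.00116), 0.87 for Ptger4 (SE 0.20, 0.0141) and 0.52 for Pla2g4a (SE 0.092, 0.00438). These 4 genes fell with TGFB1 in cultures without the knockout, and the interaction shows the changes of the genotypes to be unequal. Ptges had the value 1.37 (SE 0.38, adjusted p = 0.0321), but it missed the threshold when any of 8 of the 12 libraries was left out (Vehicle replicates 1 and 2, TGFB1 replicates 1 and 3, Tgfbr2KO_Vehicle replicates 2 and 3, Tgfbr2KO_TGFB1 replicates 1 and 2), with adjusted p up to 0.0781, and when no filter on low values was used (0.0538). Without replicate 1 of both knockout groups, which had the highest epithelial and mesothelial marker sums, Ptges (0.0623) and Ptger4 (0.0512) were not called and 3 genes remained. Ptgs2 (-1.06, adjusted p = 0.158) and Ptgis (1.33, 0.169) did not pass, but did with the replicate number as a block (0.0250 and 0.0107).

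**Figure D3:**
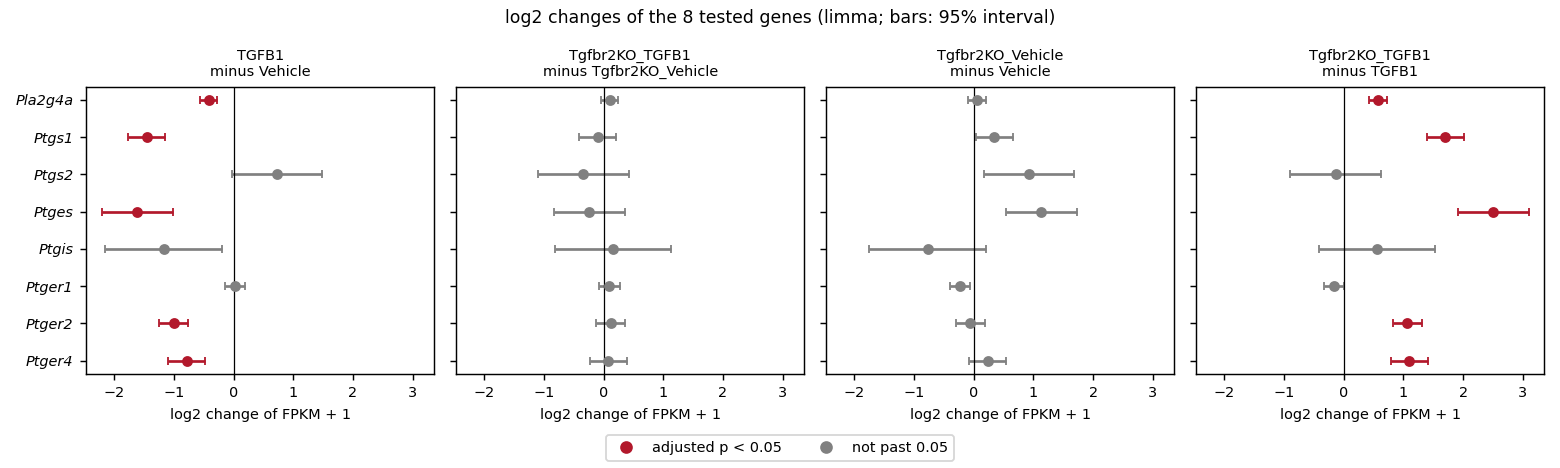
The log2 changes of FPKM + 1 (limma estimates, horizontal axis) of the 8 tested prostaglandin genes in 4 comparisons, with 95% intervals as bars, in red where the adjusted p was under 0.05. TGFB1 minus Vehicle has 5 genes below 0 in red, and Tgfbr2KO_TGFB1 minus Tgfbr2KO_Vehicle has none in red.

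With TGFB1 in both genotypes, the knockout cultures had the higher level of the same 5 genes by name. Tgfbr2KO_TGFB1 against TGFB1 was higher in Ptges by 2.50 (log2, SE 0.27, limma adjusted p = 6.47e-05), a ratio of means of 6.34. Ptgs1 was higher by 1.70 (SE 0.14, 1.20e-05), Ptger4 by 1.10 (SE 0.14, 0.000196), Ptger2 by 1.06 (SE 0.11, 5.10e-05) and Pla2g4a by 0.57 (SE 0.065, 9.15e-05). So 5 of 8 were higher and 0 lower, where 15.6% of all tested genes were higher and 18.3% lower. With no filter, 6 of 10 were higher (Ptgfr added) and 0 lower, where 2039 of 20501 genes were higher and 2256 lower. Ptgs2 (-0.13) and Ptgis (0.56) overlapped between these groups. Ptger1 was not called (-0.16, adjusted p = 0.135), but was lower in Tgfbr2KO_TGFB1 when its replicate 3 was left out (-0.23, 0.0297). This comparison shares its TGFB1 libraries with the one above.

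Without TGFB1, Ptges, Ptgs2 and Ptgs1 had higher values in knockout cultures, though no member passed the test. Tgfbr2KO_Vehicle libraries all lay above Vehicle libraries in Ptges, at 63.2 ± 12.2 and 28.6 ± 7.27 FPKM (SD, n = 3 each), a 2.21-fold difference of means with a log2 value of 1.13 (SE 0.27, limma adjusted p = 0.0665). Leaving out Tgfbr2KO_TGFB1 replicate 3, which enters only through the shared spread, gave an adjusted p of 0.0269. Ptgs2 was also above Vehicle in all 3 libraries, at 652 ± 154 and 353 ± 125 FPKM (log2 0.93, SE 0.34, adjusted p = 0.163). Ptgs1 likewise did not overlap (250 ± 38.1 and 196 ± 27.0 FPKM, log2 0.34, adjusted p = 0.190), although its lowest knockout library, at 222 FPKM, was close to the highest Vehicle library, at 220. The limma test called 0 of the 8 genes, against 0.522% of all tested genes higher and 0.72% lower. At an unadjusted p under 0.05, limma counted 4 of the 8 (Ptgs1, Ptgs2, Ptges and Ptger1) and 2769 of the 12641 tested genes. In this comparison Tgfbr2KO_Vehicle replicate 1, the library with the highest epithelial and mesothelial marker sums, was also the highest of its group in Ptgs1, Ptgs2 and Ptges. The part of such cells in the result was not tested.

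Libraries of the same number moved together in several of these genes. Replicate 3 was the lowest in Ptgs2 and in Ptgs1 in all 4 groups and the lowest in Ptges in 3 of them, while it was the highest in Ptgis in all 4. Replicate 1 was the highest in Ptgs1 and the lowest in Ptgis in all 4 groups. The labels attach the same set of identifying numbers to replicates 1, 2 and 3 in each group without saying what these stand for. Over all genes, deviations from the group mean correlated between same-numbered TGFB1 and Vehicle libraries at 0.391, 0.445 and 0.408.

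Of 37 tested genes in 5 further lists of the pathway, 11 were called with TGFB1 against Vehicle, a share near that of all tested genes given above. Of 12 tested other prostanoid synthases, reductases and transporters, 0 rose and 3 fell with TGFB1 against Vehicle, with a median log2 change of -0.12. They were Akr1b3, an aldose reductase that can make prostaglandin F (-0.70, SE 0.20, limma adjusted p = 0.0205), Prxl2b, a prostamide and prostaglandin F synthase (-0.38, adjusted p = 0.0384), and the reductase Ptgr1 (-0.19, adjusted p = 0.0123). The transporter Slco2a1, which takes prostaglandins into cells, had 8.75 ± 1.65 FPKM in TGFB1 and 4.34 ± 1.46 FPKM in Vehicle (SD, n = 3 each). It was not called (limma adjusted p = 0.0845), but was called in the fit blocked by replicate number (0.00761). Of 5 other prostanoid receptors, 1 was tested, the thromboxane receptor Tbxa2r, which was not called. The prostacyclin receptor Ptgir was untested, at 0.105 to 0.122 FPKM in TGFB1 libraries and 0.425 to 0.692 FPKM in Vehicle libraries.

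Genes that release arachidonate or return it to membranes went both ways, with 2 of 8 higher, 3 lower and a median of -0.05. Mgll, a lipase that cleaves monoacylglycerols, rose by 2.05 (log2, SE 0.43, limma adjusted p = 0.00534), at 35.1 ± 23.9 FPKM in TGFB1 and 7.30 ± 4.30 FPKM in Vehicle (SD, n = 3 each). Daglb, a diacylglycerol lipase, fell by 0.35 and Mboat7, which adds arachidonate to lysophospholipids, fell by 0.25 (adjusted p = 0.0114 and 0.0191). Pla2g15, a lysosomal phospholipase, rose by 0.24 (0.0361), a call that upper-quartile scaling ended (0.0578). Of the 5 tested genes of the leukotriene and lipoxygenase branch, 0 were called, 0 had an unadjusted p under 0.05 in limma, and the median was -0.08.

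Among 11 tested cAMP-responsive genes, 0 rose and 3 fell, with a median of -0.41, where 17.3% of all tested genes rose and 14.6% fell. Pde4b, a phosphodiesterase that breaks down cAMP, fell by 2.18 (log2, SE 0.20, limma adjusted p = 3.61e-05), with 3.68 ± 0.812 FPKM in TGFB1 and 20.1 ± 2.99 FPKM in Vehicle (SD, n = 3 each). Nr4a1, an orphan nuclear receptor, fell by 1.95 (SE 0.23, adjusted p = 0.000186), with 6.61 ± 1.56 FPKM in TGFB1 and 28.3 ± 5.61 FPKM in Vehicle. The kinase gene Sik1 fell by 0.64 (adjusted p = 0.0261). The interaction was called positive for 3 of the 11 genes and negative for 0, against 8.38% and 9.26% of all tested genes. Among the 3 were Nr4a1 (2.89, limma adjusted p = 0.000367) and Pde4b (2.77, 0.000201). For Nr4a1 and Pde4b the knockout groups gave 0.94 and 0.60 in the other direction without passing the test (both adjusted p = 0.738). In the comparison of the knockout groups, 0 genes of each of these 5 lists were called by limma. An unadjusted p under 0.05 was found for 4 of their 37 tested genes and 748 of all 12641.

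**Figure D4:**
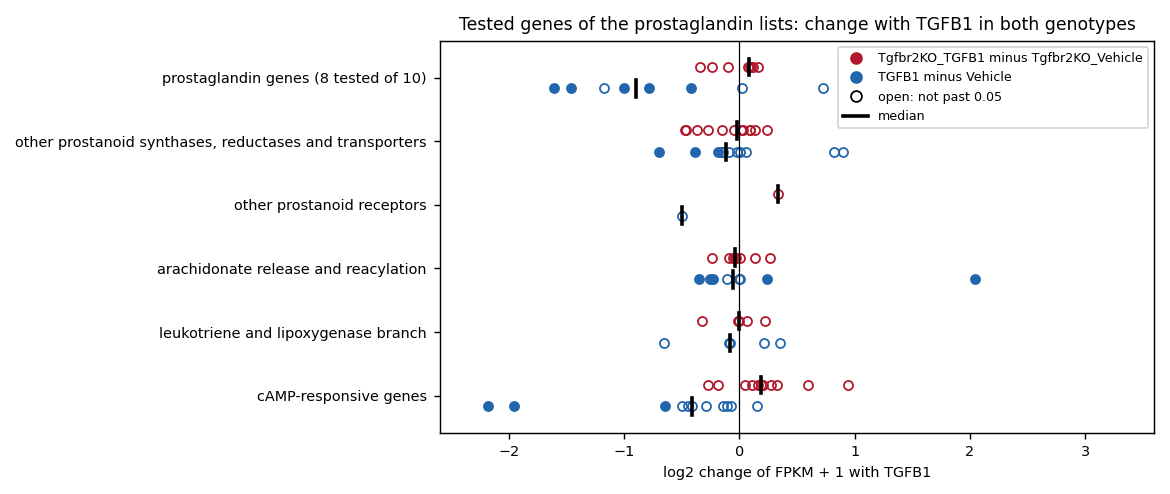
Log2 changes of FPKM + 1 of the tested prostaglandin genes and of 5 further lists of the pathway in TGFB1 minus Vehicle and in the comparison of the knockout groups (points are genes, filled where the adjusted p was under 0.05, and black bars are list medians). The members reach -1.61 in TGFB1 minus Vehicle, and the cAMP-responsive genes reach -2.18.

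Genes whose profiles over the 12 libraries lay nearest to those of the cyclooxygenases were found among 8807 genes with a mean of at least 5 FPKM, by the root mean square distance of centred log2(FPKM + 1). Nearest to Ptgs1 were Gstm1 at 0.104, Pla2r1 at 0.162, Id4 at 0.170, Atoh8 at 0.174 and Spry2 at 0.178. Gstm1, a glutathione transferase, averaged 50.1, 48.5, 14.9 and 43.6 FPKM in Tgfbr2KO_TGFB1, Tgfbr2KO_Vehicle, TGFB1 and Vehicle. Nearest to Ptgs2 were Ier3 at 0.123, Slco2a1 at 0.172, Mmd at 0.177, Arhgap31 at 0.193 and Nabp1 at 0.200. Ier3, an immediate early gene, averaged 331, 378, 299 and 195 FPKM in the same order of groups. The long noncoding gene Ptgs2os2, downstream of Ptgs2, departed from its pattern in the TGFB1 group, with 22.9 to 24.6 FPKM in TGFB1 libraries and 25.0 to 43.0 FPKM in Vehicle libraries. In the other groups Ptgs2os2 averaged 50.7 (Tgfbr2KO_TGFB1), 56.8 (Tgfbr2KO_Vehicle) and 36.7 FPKM (Vehicle), the same order as Ptgs2.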

How the data were processed

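RNA of 12 libraries was made into polyadenylated RNA-seq libraries, per the labels' protocols. The authors deposited 1 table of FPKM per gene symbol. Kallisto 0.46.1, DESeq2 1.40.1 and the build mm9 are named, per the submitters' processing notes. How the FPKM were made and scaled is not given in the sources used here, and absolute depth is unknown. Columns were matched to libraries by their labels.

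From the FPKM, log2(FPKM + 1) was fitted with limma 3.58.1 in R 4.3.3 as 4 group means over 12 libraries (8 residual degrees of freedom), with a variance trend. Tests covered the 12641 genes that reached 1 FPKM in 3 or more libraries, at a Benjamini-Hochberg adjusted p under 0.05. Fold values are ratios of mean FPKM. Python 3.11.15 with pandas 2.3.3 and scipy 1.17.1 gave the ratios and their exact permutation tests. The scripts were tested on simulated data. Promoters came from RefSeq GRCm38.p6 (8 of the 10 genes matched) and exon overlaps from GENCODE M21. An overlap of 1 member is not reported here. Relative depth was read from the steps of low FPKM values.

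All 10 members are named, with up to 4 called genes per further list and the 5 nearest profiles of each cyclooxygenase. The members and lists were chosen with earlier results of these data known. Same-numbered libraries correlated in their deviations from group means at 0.391, 0.445 and 0.408 (TGFB1 and Vehicle) and at 0.588, 0.227 and 0.529 (the knockout groups). Between genotypes they correlated at 0.336, -0.0867 and 0.412 with vehicle and at 0.337, 0.00945 and 0.276 with TGFB1 (replicates 1, 2 and 3). The main fit and the permutation tests did not pair libraries by replicate number, although same-numbered libraries of a genotype correlated. The number entered only in an alternative fit, as a block over all groups. Between genotypes, where replicates 1 and 3 correlated and replicate 2 hardly did, a pairing is uncertain. Alternatives were pseudocounts of 0.1 and 0.5, a block for the replicate number, no filter, a filter in 6 libraries, upper-quartile scaling, fits of 2 groups and leaving out each library. Leaving out replicate 1 of both knockout groups, and replicate 3 of all groups, was added after seeing the data.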

Additional observations from a re-analysis of the deposited data

Results flagged for a closer look

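The TGFB1 response differed between the genotypes, by the interaction term of the limma fit, for 5 prostaglandin genes. The interaction (log2, response of the knockout cultures minus that of the others) was 0.52 for Pla2g4a, 1.36 for Ptgs1, 1.37 for Ptges, 1.12 for Ptger2 and 0.87 for Ptger4. All 5 are positive, since these genes were lower with TGFB1 than with vehicle in cultures without the knockout and had log2 differences between -0.24 and 0.12 in the comparison of the knockout groups. With 3 libraries per group, single outlying libraries were not searched for.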

How the results depend on the processing

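Over 832 values of the tested members under alternatives, 803 stayed on their side of the threshold, 11 lost and 18 gained a call, and 0 called values changed sign. Of these, 168 belong to the comparison of the knockout groups, where 0 members were called and all 168 stayed. In a comparison of 2 groups, leaving out a library of another group changes the shared spread but not the log2 change. The 803 thus hold values that had little room to move. For the interaction, 2230 genes were called, against 3658 with the replicate block and 1486 (without TGFB1 replicate 1) to 2457 with libraries left out, and 5 members were called, against 7 with the block (6 positive, and Ptgs2 negative), 4 with no filter (Ptges lost) and 3 to 5 with libraries left out. For TGFB1 against Vehicle, 4033 genes were called, 5240 with the replicate block and 2968 to 4580 with libraries left out. Members called for TGFB1 against Vehicle were 5, 7 with the block (6 lower, and Ptgs2 higher) and 5 to 6 with libraries left out. Between the knockout groups, 0 genes were called, 1 with a pseudocount of 0.1 and 0 to 1 with libraries left out. For Tgfbr2KO_Vehicle against Vehicle, 157 genes were called, 1897 with the replicate block, 71 with no filter, 0 in a fit of the 2 groups and 0 to 748 with libraries left out, where 11 of 12 single libraries moved the count by over 1.5 times. Members called there were 0, 4 with the block (adjusted p = 0.0135 for Ptgs1, 0.0248 for Ptgs2, 0.0162 for Ptges and 0.0418 for Ptgis, lower only in Ptgis) and 0 to 1 with libraries left out. Between genotypes the same-numbered libraries share a number whose meaning is not given. With vehicle their deviations correlated at 0.336 and 0.412 for replicates 1 and 3, but at -0.0867 for replicate 2. These block values thus rest on an uncertain pairing. The same block, set over all groups, gave the block values of the other comparisons. The causes of these changes were not tested. Upper-quartile scaling shifted the median of all genes by at most 0.041 and changed no call of a tested member, but it turned the balance of all calls: 1750 higher and 2105 lower for TGFB1 against Vehicle (2184 and 1849 without it), 1186 and 1002 for the interaction (1059 and 1171), and 2233 and 2011 for Tgfbr2KO_TGFB1 against TGFB1 (1973 and 2311). Low FPKM limits Ptger2, Ptger4, Ptgfr and Hpgd most, and read counts were not used here.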
